A study of Mus musculus with 2 samples.

Results

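In mouse T cells, 273 stretches of chromosomes 1 to 19 held distal accessible regions packed closely together. They were found in 2 ATAC-seq peak lists. Overlapping peaks of both libraries were merged, and a region was kept if it had a peak in both libraries and its strongest summit lay more than 1000 bp from every protein-coding transcription start. Regions with a gap of at most 12.5 kb were chained, and chains of 10 or more regions were kept as clusters. The members were 3679 regions, 7.11% of the 51731 shared distal regions and 5.63% of all 65318 shared regions. They were thus selected on the positions of peaks in the very data described here, so their number and density are descriptions and test nothing.

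ATAC-seq uses a transposase that inserts sequencing adapters where DNA is not wrapped tightly in nucleosomes, so peaks mark promoters, enhancers and insulator sites. Regulatory DNA of genes that define a cell type often lies in runs of neighbouring enhancers spread over introns and the DNA around the gene. In T cells such runs are known at loci of lineage factors, receptors and signalling proteins, where factors of the AP-1, ETS, RUNX and TCF families bind. CTCF is a factor that sits at insulators and at the ends of chromatin loops.

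The cells were primary T cells of mouse strain C57BL/6NJ, in 1 group of 2 libraries that the labels number as biological replicates 1 and 2. The labels link to a protocol for differentiating CD4+ T cells, and peak names in the files include Th0, 72hrs and ASTARR.insert, terms left unexplained by the labels. If the last means that inserts of a reporter library were sequenced, every height and background below would also carry the steps of building that library, and this cannot be told from the files. Sex, age and treatment were not given, and both libraries carry the same donor record, so they may not come from separate animals and their spread may be technical. With 1 group there was no comparison between conditions and no test.

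Each peak carries the authors' signal value, read as a fold over the local background. This fold and the deposited −log10 p together fixed a whole-number summit height and a local background for 99.979% of the peaks of replicate 1 and 99.993% of those of replicate 2. The lowest background was 5.042 in replicate 1 and 3.713 in replicate 2, a ratio of 1.36, and 28.0% of the peaks of each library sat at it. Heights are given as recovered, and as multiples of that lowest background where the libraries are set side by side. This scale was added after the data had been seen. No source used here gives read numbers.

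A set of 11 windows of 100 bases shows what the summits of members look like in sequence, each centred on a summit of mm10 and written from the plus strand. Capitals mark the matches. The first 5 come from clusters with the most members, and each is the tallest member of its cluster with an AP-1, ETS, RUNX or TCF and LEF match. The next 5 are the tallest members of all clusters with an AP-1, RUNX, TCF and LEF, NF-kB or CTCF match, and the last is the tallest with both an ETS and a RUNX match. The motif letters were TGACTCA for AP-1, ACNGGAAG for ETS, TGTGGTT for RUNX, and CTTTGAA or CTTTGAT for TCF and LEF, on both strands, with NF-kB and CTCF searched by longer consensus patterns.
Prkch: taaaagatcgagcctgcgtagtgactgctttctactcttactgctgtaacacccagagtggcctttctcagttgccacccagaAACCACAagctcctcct
Ctla4: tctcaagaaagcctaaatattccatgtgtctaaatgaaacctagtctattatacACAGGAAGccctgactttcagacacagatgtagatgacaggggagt
Bach2: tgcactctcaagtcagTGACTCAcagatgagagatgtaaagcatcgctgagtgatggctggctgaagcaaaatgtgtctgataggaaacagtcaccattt
Ubac2: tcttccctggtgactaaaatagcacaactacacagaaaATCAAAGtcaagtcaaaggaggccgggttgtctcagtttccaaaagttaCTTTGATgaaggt
Ikzf1: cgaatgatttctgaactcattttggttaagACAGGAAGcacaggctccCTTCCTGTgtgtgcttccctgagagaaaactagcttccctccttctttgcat
Bin3: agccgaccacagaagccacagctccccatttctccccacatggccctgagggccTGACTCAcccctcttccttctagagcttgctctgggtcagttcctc
Tomm20: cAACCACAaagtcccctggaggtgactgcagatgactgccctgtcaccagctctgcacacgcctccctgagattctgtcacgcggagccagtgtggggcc
Gm28048: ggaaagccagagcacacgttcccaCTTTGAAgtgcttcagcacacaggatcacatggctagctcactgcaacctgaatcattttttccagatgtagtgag
Igfbp7: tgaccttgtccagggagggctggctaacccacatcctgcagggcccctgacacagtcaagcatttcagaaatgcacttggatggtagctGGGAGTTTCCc
Tnni1: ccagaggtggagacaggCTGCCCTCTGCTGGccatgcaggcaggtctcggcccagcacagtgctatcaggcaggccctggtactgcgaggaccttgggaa
Fam107b: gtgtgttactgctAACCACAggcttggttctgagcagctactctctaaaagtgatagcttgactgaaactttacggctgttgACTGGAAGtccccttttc

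The Prkch window (chr12:73593429-73593528) lies in an intron 8.68 kb from the nearest coding start and holds a RUNX match. Its summit height was 444 in replicate 1 and 320 in replicate 2. The Ctla4 window (chr1:60917326-60917425) is intergenic, 8.21 kb from a start, and has an ETS match at heights of 379 and 240. In an intron of Bach2 (chr4:32405765-32405864) an AP-1 match sat under a summit of 578 and 412. The Ubac2 window (chr14:121983473-121983572) is intronic and has a TCF and LEF match on each strand. The Ikzf1 window (chr11:11690074-11690173), also intronic, has an ETS match on each strand.

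Taller still was the AP-1 window of the cluster called Bin3 (chr14:70057122-70057221), with heights of 849 and 609. It is intronic and lies 20.03 kb upstream of Egr3, which encodes a factor induced by T-cell receptor signalling. The cluster overlaps Pebp4, Egr3 and Bin3, and its name does not mean that the intron is one of Bin3. The RUNX window near Tomm20 (chr8:126867753-126867852) is intergenic and reached 819 and 526. The TCF and LEF window in Gm28048 (chr11:22814433-22814532) reached 759 and 537, and the NF-kB window in Igfbp7 (chr5:77384266-77384365) reached 583 and 432, both in introns. Among the members open to this choice, the tallest with a CTCF match, near Tnni1 (chr1:135753071-135753170, intergenic), was lower, at 301 and 210. The ETS and RUNX window in an intron of Fam107b (chr2:3718072-3718171) reached 402 and 309. For scale, the median shared distal region was 64 high in replicate 1 and 47 in replicate 2, and the windows were chosen as tall ones.

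Clusters ran from 34.0 to 182 kb, with a median of 68.3 kb. Together they spanned 20.2 Mb, which is 0.820% of the 2463 Mb of chromosomes 1 to 19. A cluster held a median of 12 members and at most 34. There were 201 clusters with 10 to 14 members, 47 with 15 to 19 and 25 with 20 or more. Inside clusters there were 18.2 members per 100 kb, against 2.10 shared distal regions per 100 kb of the chromosomes as a whole. The gap between neighbouring members had a median of 4.69 kb, against 12.5 kb between neighbouring shared distal regions in general. Just outside the threshold were 128 chains of 9 regions, and just inside it 66 chains of 10. Their median signal values were 5.70 and 5.52, and their median heights 17.6 and 18.8 times the lowest background.

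Most members lay in or near genes. Introns held 2064 members (56.1%), intergenic DNA 1473 (40.04%) and exons 142 (3.86%), against 48.4%, 45.7% and 5.95% of the other shared distal regions. The median member was 26.2 kb from the nearest coding start, and the median other region 21.4 kb. In 73 clusters a single gene body held all the summits, and in 108 it held at least 80% of them. At the other end, 48 clusters had no summit in any coding gene, and 46 of these overlapped no coding gene at all. A promoter region lay within the span of 116 clusters, and 157 had none.

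A cluster is called here by the protein-coding gene whose body holds most of its summits, or, where no body holds any, by the gene with the nearest start. Such a name says where the cluster is, not which gene it acts on.

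The largest cluster covered Prkch, which encodes protein kinase C eta, with 34 members over 173 kb (chr12:73554069-73726769). Of these, 29 lay in the gene body. Heights ran from 27 through a median of 120 to 444 in replicate 1 and from 21 through 87.5 to 320 in replicate 2. The next, at Ctla4 and Icos, held 32 members over 182 kb (chr1:60821476-61003603), the longest span of all. Ctla4 is an inhibitory and Icos a costimulatory receptor of activated T cells. Here 10 members lay upstream of Ctla4, 5 in its body and 17 downstream of it, while 3 lay in Icos. Heights ran from 25 through 141 to 444 in replicate 1 and from 17 through 96 to 302 in replicate 2. Both clusters therefore mixed tall and low members in each library.

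Another cluster spanned Irf4 and parts of Dusp22 and Exoc2 (chr13:30681969-30843683), with 31 members. Irf4 encodes a transcription factor induced on T-cell activation, and 11 of the members lay upstream of it, 3 in its body and 17 downstream. The median height was 139 in replicate 1 and 102 in replicate 2, and the tallest member reached 487 and 349 at 82.3 kb downstream of the Irf4 start. Bach2, a repressor that holds T cells in a resting state, had 29 members in a first cluster that lay wholly inside the gene (chr4:32249884-32406466). Its tallest member was the first, 12.2 kb from the start of the gene, at 799 and 585. A second Bach2 cluster of 10 members sat at the far end, where the tallest reached 574 and 422 at 349.7 kb from the start.

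**Figure D1:**
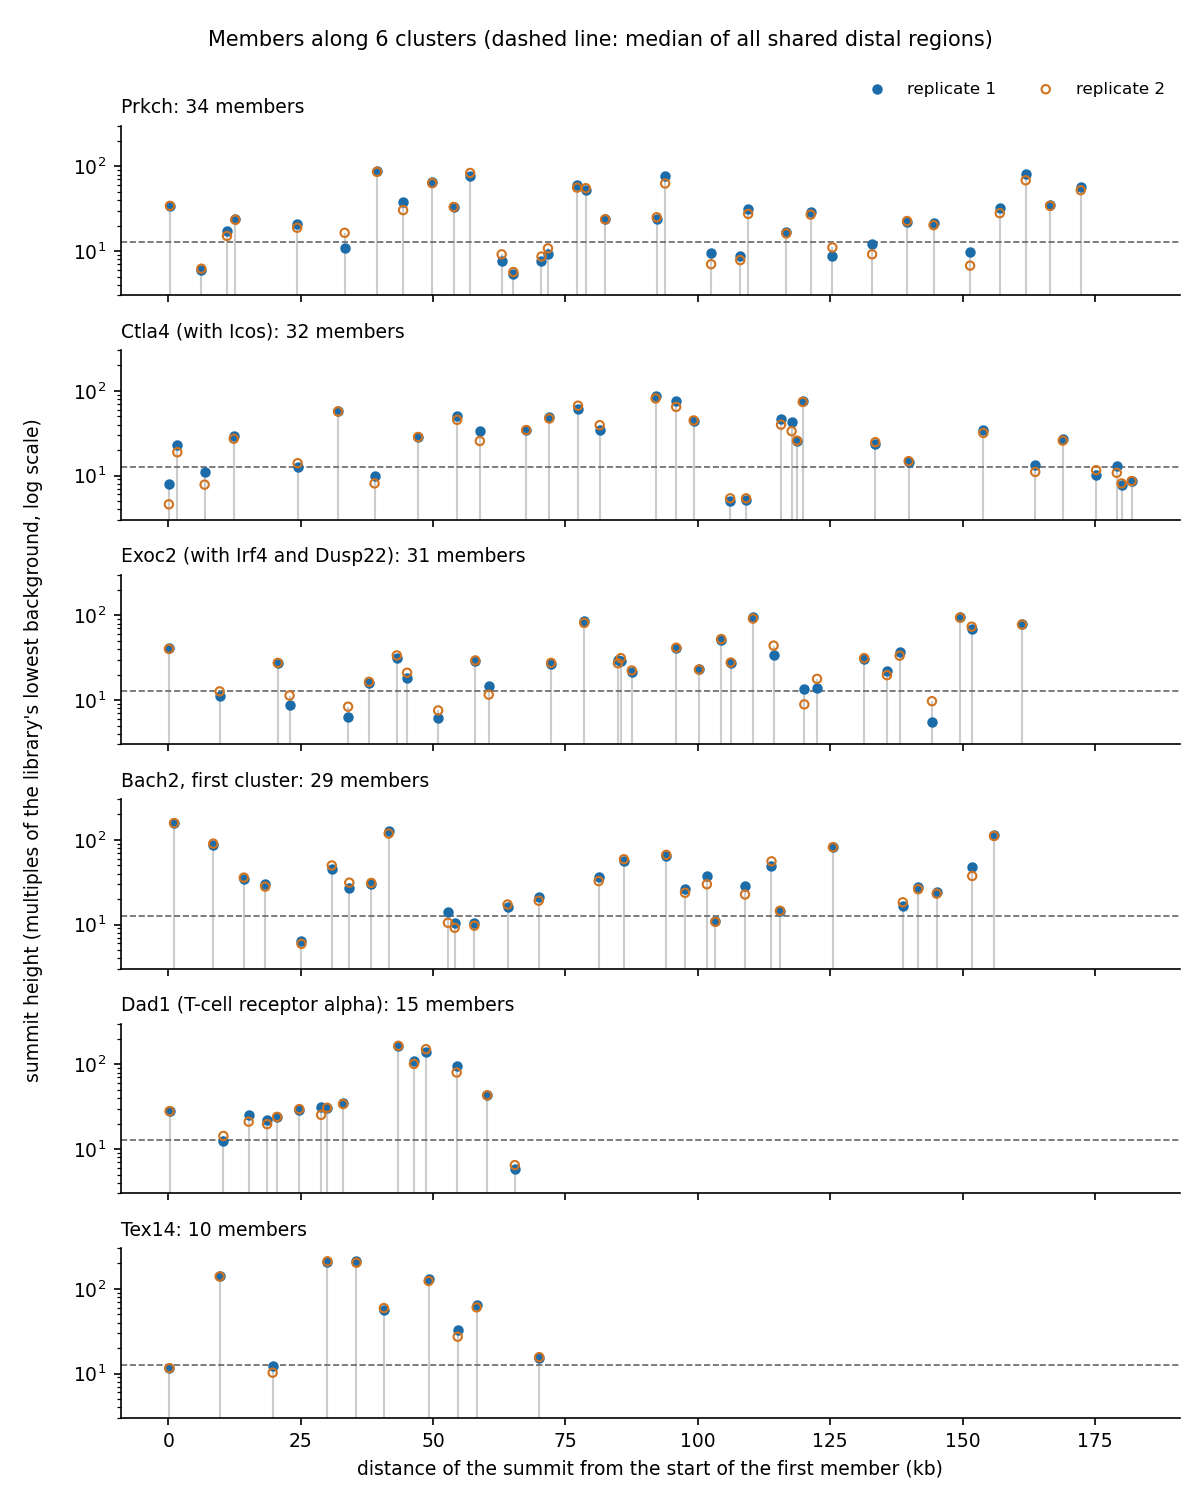
Summit height of every member along 6 clusters (Prkch, Ctla4, Exoc2, the first at Bach2, Dad1 and Tex14), in multiples of the library's lowest background on a log axis, against the distance in kb from the start of the first member. Filled points are replicate 1, open points replicate 2, and the dashed line is the median of all shared distal regions (12.7). The points of both replicates nearly coincide, and tall and low members are interspersed along the first 4 clusters, while at Dad1 the tallest members stand side by side. The Tex14 cluster holds members above 200 times the lowest background.

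Further large clusters lay at Ubac2 with Gpr183 (29 members), Ankrd44 (27), Ikzf1 (26), Chd2 and Itpr1 (25 each), and Cytip (24). Gpr183 encodes a receptor that guides lymphocytes by oxysterols, Ikzf1 the lymphoid factor Ikaros, Itpr1 a calcium release channel and Cytip a leukocyte adaptor of cytohesins. The Ikzf1 cluster had 8 members upstream of the gene and 18 inside it. Its median signal values of 2.90 and 2.67 were among the 3 lowest of all clusters, although its median height of 98 and 69.5 was above that of all shared distal regions. The tallest Chd2 cluster member, 16.9 kb from a start, reached 784 and 584. In the Cytip cluster 11 of 24 members stood at 40 or more times the lowest background.

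Tcf7, which encodes TCF1, a factor of T-cell identity, had 23 members, of which 13 lay upstream of the gene, 8 in its body and 2 downstream. Heights ran from 21 through 146 to 527 in replicate 1 and from 25 through 95 to 380 in replicate 2. A cluster of 23 members also lay in Tg, the thyroglobulin gene, which overlaps Sla, an adaptor that dampens T-cell receptor signalling. There, 11 members lay in Sla and 11 upstream of it, and the median height of 228 and 170 was the highest of these 15 clusters. The remaining 3 of the 15 lay at Clec16a with Socs1, a brake on cytokine signalling, at E2f2 with Id3, an inhibitor of E proteins, and at Gm20388, whose model overlaps Ankrd11, the gene of a chromatin regulator, with 22 members each.

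**Figure D2:**
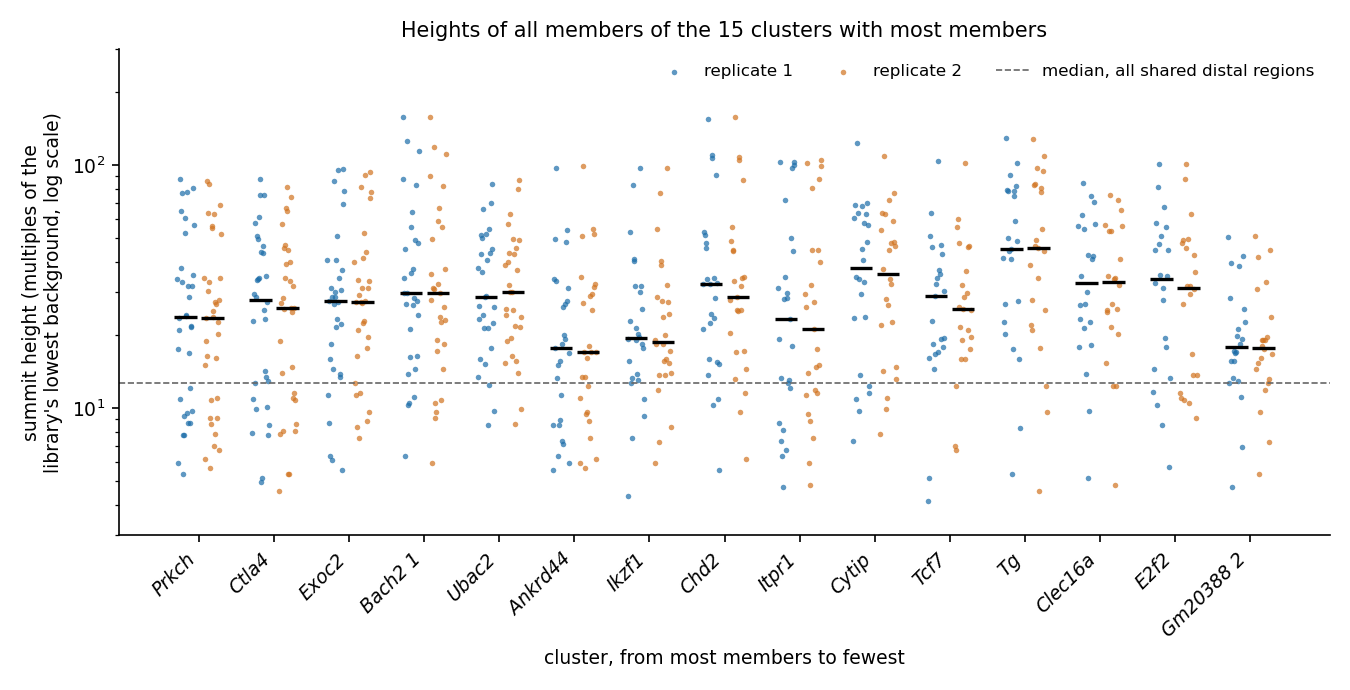
Summit height of each member of the 15 clusters with most members, in multiples of the library's lowest background on a log axis. Points are members, blue for replicate 1 and orange for replicate 2, black lines are medians and the dashed line is the median of all shared distal regions (12.7). All 15 medians lie above the dashed line in both replicates, and members of each cluster spread over about a 10-fold range or more.

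Members of a cluster differed widely in height. The SD of log2 height within a cluster had a median of 1.08. The tallest member stood a median of 3.48 times above the median member of its cluster. Of the 3679 members, 885 reached 40 or more times the lowest background, and 248 of the 273 clusters had at least 1 of these. The first and last members of a cluster were lower, with a median of 17.0 times the lowest background against 22.8 for the inner ones, and had a higher signal value, at 6.15 against 5.02. For 2 members no height could be recovered.

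Both libraries gave nearly the same heights at members, which the rule limits to regions with a peak in both. The log2 ratio of replicate 1 to replicate 2 height was taken on the scale of the lowest background. Over members it had a median of 0.02 and an SD of 0.23, and 1 member differed by more than 2-fold. Its SD was 0.27 over the other shared distal regions and 0.18 over shared promoter regions, so such closeness is not particular to clusters. Cluster medians of this ratio ran from −0.29 at Polg to 0.25 at Lrch1, with Prkcq, at 0.23, also among the 3 clusters farthest from 0. Polg encodes the mitochondrial DNA polymerase, and Prkcq protein kinase C theta, which signals from the T-cell receptor. The Polg cluster was higher in replicate 1 at 3 of 12 members, the Lrch1 cluster at 9 of 11 and the Prkcq cluster at 11 of 15. Inside the cluster spans there were 4092 merged distal regions, of which 3679 (89.9%) were shared, 309 were called in replicate 1 alone and 104 in replicate 2 alone. Among all merged distal regions 75.7% were shared, and since the rule asks for shared regions this difference is no finding.

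The deposited signal and the summit height set members apart in opposite directions. Members had a median signal value of 5.30 in replicate 1 and 5.08 in replicate 2, below the 6.81 and 6.58 of the other shared distal regions. Their summits were higher, at a median of 112 and 81 against 61 and 45. On the scale of the lowest background these heights were 22.2 and 21.8 against 12.1 in both libraries. The local background was also higher, at 3.96 and 3.97 times the lowest against 1.40 and 1.42. At the lowest background sat 4.70% of members in replicate 1 and 4.87% in replicate 2, against 31.4% and 30.5% of the others. The signal value divides the height by this background, to which close neighbours can add, and close neighbours are what the rule asks for. How far the neighbours set the background was not tested.

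These values changed in steps with the number of regions in a chain, below the threshold too. Single regions, chains of 2 to 4, chains of 5 to 9 and members had median signal values of 7.35, 6.62, 5.90 and 5.20, taken over both libraries. Median heights were 10.3, 12.3, 15.8 and 21.9 times the lowest background, and median backgrounds 1.01, 1.51, 2.28 and 3.98 times. Members were also slightly wider than the other shared distal regions, with a median of 754 against 687 bp. Their GC content was alike, at 48.0% and 48.5%. At a matched height of 10 to 20 times the lowest background, 980 members had a median signal of 4.68 and 14794 other regions one of 8.41, with backgrounds of 2.84 and 1.43. Of the clusters, 236 had a median height above that of all shared distal regions, while 52 had a higher median signal.

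**Figure D3:**
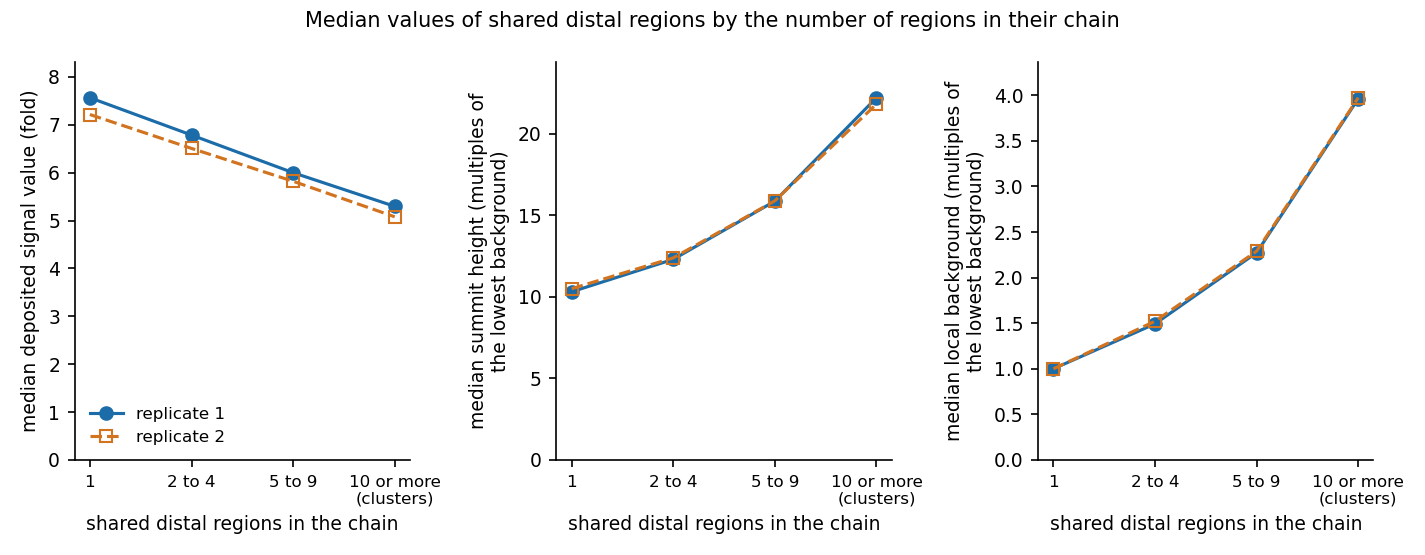
Median signal value (fold), median summit height and median local background (both in multiples of the library's lowest background) of shared distal regions, by the number of regions in their chain. Solid lines are replicate 1 and dashed lines replicate 2. From single regions to clusters the signal fell from 7.57 to 5.30 in replicate 1, while height rose from 10.3 to 22.2 and background from 1.00 to 3.96.

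The cluster with the highest median signal lay in introns of Tex14, a gene of germ cell bridges, at 11.1 and 10.3, and its 10 members also had the highest median height, 303 and 222. Of its members, 2 stood above 200 times the lowest background, at 1064 and 754 and at 1052 and 784. Next by signal came clusters at Atp8b4, Lrrc74a and Myc and one at Mapkapk2 that spans Il10, with medians between 8.39 and 9.38 in either library. By contrast, the lowest signal was in a cluster of tall members, the one called Dad1 (chr14:54178967-54245701), with medians of 2.55 and 2.35. Its local background, at 12.6 times the lowest, was the fourth highest of all clusters. It covers 39 gene segments of the T-cell receptor alpha locus, J segments and the constant gene among them. Its 15 members had a median height of 152 and 110, and the tallest reached 830 and 615, close to the top of all members.

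The densest clusters were at Sec22b, with 33.4 members per 100 kb, P4ha2 (29.5), Mbnl1 (29.4), Emsy (28.8) and Igfbp7 (28.2). Sec22b encodes a vesicle SNARE, P4ha2 a collagen hydroxylase and Mbnl1 a splicing factor. The Sec22b and P4ha2 clusters overlapped no protein-coding gene, though each overlapped a long noncoding RNA gene. Their midpoints lay 50.1 and 59.2 kb from the nearest start, and some of their members lay closer to one. Heights were high at Sec22b, with a median of 222 and 162, and close to the general level at P4ha2, at 64 and 45. The 2 densest clusters thus differed in height. The 5 strongest members by signal lay in the clusters at Tex14 (2 of them), Sp3, Tmem170b and Stx11, with signal values between 15.9 and 18.4 in either library. The one at Sp3 was only 156 and 132 high, against the 1064 and 754 at Tex14.

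The next question was which genes clusters touch, meaning that the gene body overlaps the span. Clusters touched 327 of 20722 protein-coding genes of chromosomes 1 to 19, which is 1.58%. The share was larger in long genes, from 0.579% in the shortest decile of length to 4.63% in the longest. Of 126 genes in 6 lists of T-cell genes, 44 (34.9%) were touched, against 2.06% of genes of the same length deciles. Of 69 genes in 6 lists of other tissues and of housekeeping genes, 2 (2.90%) were touched, against 2.05% of genes of the same length deciles. The other lists were thus near the general share and not below it. Both counts describe these libraries, and the lists were put together with earlier results of the same data known. No list gene has a part in the rule, yet the lists were not drawn independently of these data.

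Among T-cell core genes 10 of 28 were touched. Among them were Cd247, the zeta chain of the T-cell receptor complex, the kinases Prkcq and Fyn, the adaptors Fyb, Lcp2 and Sla, the surface proteins Cd6 and Cd28, and the phosphatase Ptprc. The Cd247 cluster held 14 of its 17 members in the gene, with a median height of 85 in replicate 1 and 61 in replicate 2. The Cd6 cluster had 5 members in the gene and 14 downstream of it. Its median height was 188 and 146, and 5 of its 19 members had a TCF and LEF match, a count singled out after it was seen (5.38% of all shared distal regions have one). Another 18 core genes were not touched, Cd3e, Lck, Zap70, Lat, Cd4 and Cd8a among them.

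Of lineage factors 8 of 19 were touched. Besides Tcf7 and Ikzf1 these were Bcl11b, a guardian of T-cell identity, Lef1, the relative of TCF1, Runx1, Tox, and the ETS family genes Ets1 and Fli1. The clusters at Runx1 (13 members) and Tox (15) lay wholly inside the gene. At Lef1, 19 of 22 members were inside it, and the tallest stood at 606 and 379 while the median was 88.5 and 59. The Ets1 cluster had 15 of 18 members in the gene, a median of 176 and 110, and the highest local background of all clusters, at 13.1 times the lowest. Gata3, Runx3, Satb1 and Zbtb7b were among the 11 not touched.

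Genes of naive and memory cells had the largest share, at 9 of 15. Foxp1, which encodes a factor that keeps T cells quiescent, held 3 separate clusters of 21, 10 and 10 members, all inside the gene. The median height was 113 and 76 in the one nearest the start, and 88.5 and 69 and 41.5 and 38 in the other two. At Ccr7, the homing receptor for lymph nodes, 9 members lay upstream, 2 in the gene and 8 downstream, with a median of 227 and 159. At Il7r, the receptor for interleukin 7, 9 of 12 members lay upstream, and the tallest, 39.5 kb away, reached 439 and 331. The Bcl2 cluster held 20 members in the gene. The others were Bach2, described above, Foxo1, Klf2, Il6ra and Nfatc1.

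Activation and signalling genes were touched in 11 of 26 cases. The Il2ra cluster, at the gene for the inducible chain of the interleukin 2 receptor, had 9 members in the gene and 6 upstream. Its median height was 194 in replicate 1 and 144 in replicate 2, and the tallest member, 25.8 kb upstream, reached 624 and 441. Il2 lay in a cluster called Il21, with 15 of 16 members upstream of Il2 and none in it, and the tallest, 47.5 kb away, reached 475 and 320. At Cd69, an early activation marker, 19 of 21 members lay downstream. Nfkb1 had clusters of 16 and 11 members. Egr3, Nr4a1, Irf4, Icos, Ctla4, Cblb and Tnfsf8 completed this list.

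Of helper subset genes 4 of 24 were touched, and of genes of migration and adhesion 2 of 14. Whether lists differ from each other was not tested. The Ifng cluster, at the gene of the Th1 cytokine interferon gamma, had 1 member in the gene and 10 downstream of it. Its median height of 61 and 54 was close to that of all shared distal regions, and 4 of its 11 members had a RUNX match, a count singled out after it was seen (6.21% of all shared distal regions have one). At Il10, 6 members lay upstream and 5 downstream, with a median of 150.5 and 104. Stat4 and Nrp1 were the other two, and Ccr4 and Cd226 those of migration and adhesion. Tbx21, Il4 and Bcl6 were among those not touched.

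Of the other lists, B cells, hepatocytes, neurons and housekeeping had no touched gene, in 12, 12, 12 and 10 genes. Among genes of the same length deciles the shares were 2.04%, 1.25%, 4.51% and 0.936%, so 0 in lists this short tells little. The 2 touched were Cebpb, a factor of myeloid and other cells, and Ryr1, the calcium channel of muscle. The cluster in Ryr1, which also overlaps Map4k1, was low, with a median height of 39 and 35 over 11 members. The one spanning Cebpb had 63 and 50 over 12.

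**Figure D4:**
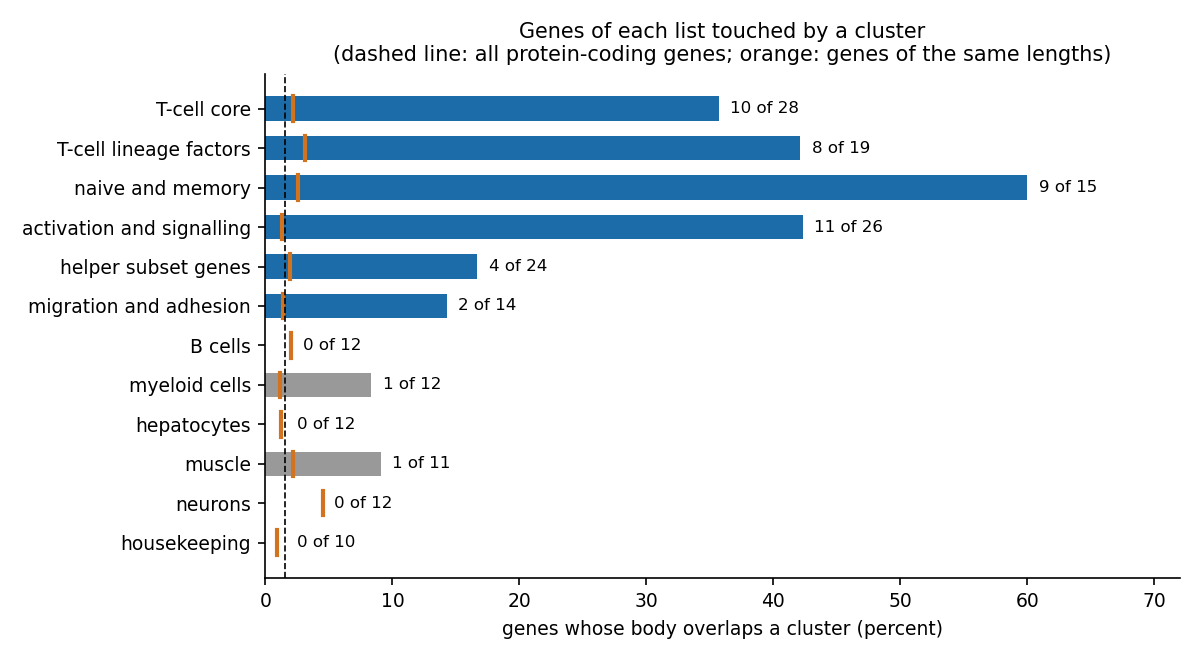
Percent of the genes of each list whose body overlaps a cluster, blue for T-cell lists and grey for others, with the counts printed beside the bars. The dashed line is the share of all protein-coding genes (1.58%) and the orange marks the share among genes of the same length deciles. The T-cell lists run from 14.3% to 60%. Of the other 6 lists, with 10 to 12 genes each, 4 are at 0.

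Over the 48 pairs of a listed T-cell gene and a cluster, 446 members lay in the gene body, 201 upstream and 159 downstream of it, and a member near 2 listed genes is counted for both. In 28 pairs more than 50% of the members were inside the gene, and in 2, Il2 and Klf2, none was. Some listed genes that no cluster touched had one nearby: the midpoint of a cluster lay 79.2 kb from the nearest start of Cd44, 76.6 kb from that of Tnfaip3 and 75.01 kb from that of Rasgrp1. The midpoints of the 2 clusters called by Myc lay 220 and 827 kb from its start, and that of one called by Bcl6 lay 199 kb from the start of Bcl6. The Bcl6 cluster had a median height of 189 and 125.5, and the first Myc cluster 117 and 88.

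Promoter regions inside cluster spans were not used by the rule. There were 156 of them, and their signal values followed the pattern of the members. The median signal was 6.09 in replicate 1 and 5.98 in replicate 2, against 10.8 and 10.3 at the other 13431 shared promoter regions. Their heights were 54.4 and 54.3 times the lowest background against 47.8 and 46.3, and their local backgrounds 8.29 and 8.20 against 4.11 and 4.13. Of 193 genes with a start inside a cluster, 159 (82.4%) had a shared promoter region, against 64.1% of other genes.

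Motif content was not part of the rule either. The 100 bp around the summit held a CTCF match in 2.09% of members and in 5.22% of the other shared distal regions, with 5.00% over all shared distal regions. Over all shared regions, promoters included, the share was 4.19%. The share fell in steps with chain size, from 6.19% of single regions over 5.30% and 3.56% to that of members. It was below that of the others in each of 5 classes of height too: at 10 to 20 times the lowest background it was 3.37% of members against 7.54%, and at 40 to 80 times 0.730% against 1.75%. At 80 times or more it was 0% of 200 members against 0.715% of 839 others, where matches are too few to tell the groups apart. Among the 77 members with a match, 3 each lay in the clusters at Pttg1 and Rara.

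Taken over all heights, the motifs of T-cell factors differed less in percentage points between members and other regions than CTCF did. AP-1, the most frequent of these, was matched in 17.3% of members and 18.9% of other shared distal regions, with 18.8% over all. At matched height it was lower in members in 4 of 5 classes, for example 16.5% against 18.9% at 10 to 20 times the lowest background. At 20 to 40 times it was 18.6% against 22.6%, at 40 to 80 times 19.4% against 23.9%, and at 80 times or more 20% against 19.1%. At 5 to 10, 20 to 40 and 40 to 80 times the gap in points was wider for AP-1 than for CTCF, at 10 to 20 times narrower. ETS was matched in 5.36% and 4.65% (4.70% over all), RUNX in 6.33% and 6.20% (6.21%), and TCF and LEF in 5.82% and 5.34% (5.38%). At matched height ETS was higher in members in the classes from 10 to 80 times. It was lower in members at 5 to 10 times (4.38% against 4.50%) and at 80 times or more (2.5% of 200 members against 6.32% of 839 others). The sign of the RUNX difference turned under other settings. Windows 500 bp away held an AP-1 match in 1.66% of members, an ETS match in 1.82%, a RUNX match in 2.30% and a TCF and LEF match in 3.95%. At least 1 of these 4 motifs was matched in 31.5% of members and 31.8% of the others. An ETS and a RUNX match together, as in the Fam107b window, were found in 20 members (0.544%) and in 0.300% of the others. HNF4, a factor of liver and gut, was matched in 3 members (0.082%) and in 0.108% of the others (0.106% over all). The POU and MEF2 motifs, also searched for comparison with other tissues, were matched in 0.761% and 0.381% of members. In the others these shares were 0.822% and 0.241%.

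**Figure D5:**
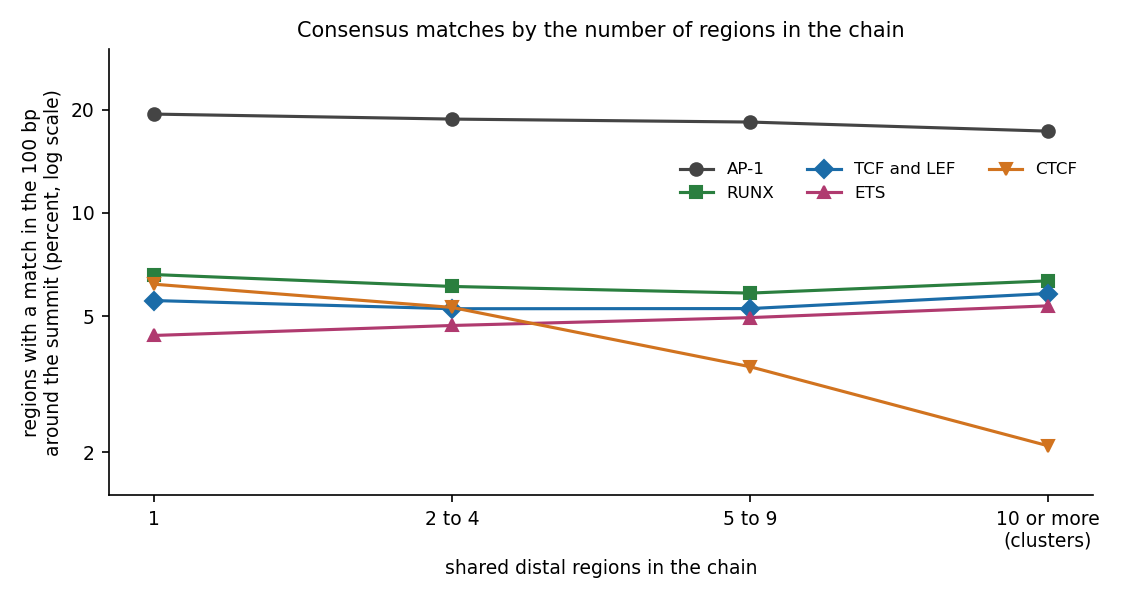
Percent of shared distal regions with a consensus match in the 100 bp around the summit (log axis), by the number of regions in their chain, for AP-1, RUNX, TCF and LEF, ETS and CTCF. CTCF falls from 6.19% of single regions to 2.09% of members, while AP-1 goes from 19.4% to 17.3%, ETS from 4.39% to 5.36%, RUNX from 6.61% to 6.33% and TCF and LEF from 5.55% to 5.82%.

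Clusters differed in which motifs they held. AP-1 matches were found in 246 of the 273 clusters, RUNX in 149, TCF and LEF in 147 and ETS in 143. The clusters at Ctla4, Gm20388, Grap and Mdfic each had 8 members with an AP-1 match, of 32, 22, 20 and 17. RUNX was matched in 4 members each at Ifng, Ninj2 and Rasgrp1, and ETS in 4 each at Prkch and Ankrd44. Clusters with more members have more windows to match, so these counts are not ranks. When members were split by height into 3 equal parts, AP-1 was matched in 19.5% of the tallest part and 14.9% of the lowest, RUNX in 7.10% and 5.55%, TCF and LEF in 6.69% and 4.89%, ETS in 4.98% and 4.81%, and CTCF in 1.14% and 2.86%. In the other shared distal regions AP-1 also rose with height, from 17.0% at 5 to 10 times the lowest background to 23.9% at 40 to 80 times. At 80 times or more it was back at 19.1%.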

How the data were processed

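ATAC-seq peak lists of 2 libraries were used, on mm10 per the labels. In 99.9987% of peaks of each library the authors' score equals 10 times the deposited −log10 q with decimals dropped and a ceiling of 1000. The deposited signal value is a ratio, read as fold over local background, and the authors' −log10 p and −log10 q were taken as deposited. Aligner, caller and threshold are not given in the sources used here, and the peaks were called per library. No step that shifts reads for the transposase could be checked, and the reads were not analysed here.

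Peaks of chromosomes 1 to 19 (76230 and 72904) that overlapped by 1 bp or more were merged into 82687 regions, which took the strongest summit. Starts were the 54340 protein-coding transcript starts of GENCODE mouse release 21. Height h and background b were solved from fold = (h + 1)/(b + 1) and the Poisson tail above h, to within 0.005 in −log10 p. This form is inferred from the values, and no source states it. Genome sequence and RefSeq's GRCm38.p6 have the coordinates of mm10.

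Members, gene lists, motifs and the naming rule were chosen with earlier results of these data known. The rule named the 15 clusters with most members, the 5 densest, the 5 with the highest and the 3 with the lowest median signal, the 3 differing most between libraries, the clusters of the 5 strongest members, and every cluster with a listed gene, 73 in all. A few others (Cd44, Tnfaip3, Rasgrp1, Bcl6, clusters rich in a motif, and those of the printed windows) were named after their values were seen. A few listed genes are counted but not reported here by name. Cxcr3, Foxp3, Dmd, Hprt and Pgk1 are not on chromosomes 1 to 19. Shares and medians were set beside those of other regions without a test, since regions are not replicates. The code was tested on simulated data. Python 3.11.15, numpy 2.4.6, scipy 1.17.1 and matplotlib 3.10.9 were used.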

Additional observations from a re-analysis of the deposited data

How the results depend on the processing

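The number of clusters follows the thresholds of the rule. It was 273, and became 148 with a largest gap of 10000 bp, 417 with 15000 bp, 541 with at least 8 regions, 155 with at least 12, and 400 to 523 when either replicate was left out. With the 50000 peaks of highest signal in each library 6 were left, and with the 50000 tallest, an alternative chosen after seeing the data, 124. Members, 3679 or 7.11% of shared distal regions, became 5485 (9.31%) without replicate 1 and 7412 (11.9%) without replicate 2. Genes touched, 327, became 5 with the 50000 strongest, 161 and 604 with gaps of 10000 and 15000 bp, 618 with at least 8 regions, and 477 to 665 without 1 replicate. Listed T-cell genes, 44, became 2 with the 50000 strongest and 28 with a gap of 10000 bp, and lay between 30 and 58 under every other alternative run.

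The log2 difference in median signal between members and other shared distal regions was −0.36. It was −0.12 with the 50000 strongest peaks, −0.46 with a gap of 10000 bp and −0.35 to −0.27 without 1 replicate. Measured by summit height, an alternative chosen after seeing the data, it turned to 0.84. The CTCF difference was −3.13 percentage points. It was −3.76 with −log10 q of at least 5, −2.01 with the 50000 strongest, −3.37 and −2.96 with gaps of 10000 and 15000 bp, −2.88 with at least 8 regions, −2.95 with a promoter distance of 500 bp, −2.73 with gene 5' ends alone, and −2.86 to −2.68 without 1 replicate. The AP-1 difference, −1.58 points, ran from −3.08 with the 50000 strongest to −1.27 with at least 12 regions, and the ETS difference, 0.704 points, from 0.422 with at least 8 regions to 3.41 with the 50000 strongest. The RUNX difference, 0.132 points, turned to −0.094 with −log10 q of at least 5, −1.03 with the 50000 strongest, −0.181 with a gap of 15000 bp and −0.202 without replicate 2, and was 0.0063 without replicate 1. The cause of these changes was not tested, though by construction a shorter gap splits chains and fewer peaks leave fewer regions to chain. Read depth was not given, so a gap inside or between clusters cannot be told from regions below the calling threshold.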

Other observations

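Clusters were spread unevenly over the chromosomes. Chromosome 11 held 32 of them, with 11.6% of its shared distal regions as members, and chromosome 19 held 11 with 9.59%. Chromosome 17 held 4 clusters with 2.35% and chromosome 5 held 7 with 2.64%. Over all chromosomes the share was 7.11%. With chromosome X added, which the rule leaves out, there were 277 clusters.

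Some clusters lay around genes with no listed part in T cells. Several of these were low, but so were some at listed T-cell genes. Median heights were 41.5 and 38 in 1 of the Foxp1 clusters and 46 and 43.5 at Foxo1. The lowest median heights were at Lmx1b, a factor of limb and kidney development (38 in replicate 1 and 25 in replicate 2), at Slit1, an axon guidance gene (33 and 27.5), and at Fancc, of the Fanconi DNA repair pathway (34 and 27). A cluster over 14 V segments of the T-cell receptor beta locus also had a low median, at 36 and 27.5, with a background of 1.07 times the lowest. Its tallest member reached 545 and 415. The alpha locus cluster described above, which was taller, covers J segments and the constant gene instead, so unlike parts of these loci are set side by side. Others were high: a cluster at Frmd8 that spans the long noncoding RNA genes Malat1 and Neat1 had a median of 228.5 and 174.5 over 14 members, and one at Ago2, a gene of RNA silencing, 284 and 203 over 11.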
